A study of Caenorhabditis elegans with 4 samples.

Results

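The zip-8 sites described here are the 369 peaks on chromosome III of a list that its authors call combined, out of 2237 peaks on the 6 nuclear chromosomes. They were chosen by chromosome alone, whatever their place in the list. The list comes from ChIP-seq, which sequences DNA bound by a protein, here the product of F23F12.9, the locus tag of zip-8. The 4 samples were all embryos of Caenorhabditis elegans strain OP327, from a mixed population of males and hermaphrodites grown at 20 °C and fixed with 2% formaldehyde. There were 2 ChIP samples, precipitated with an antibody against GFP, and 2 input samples, which were saved from the same kind of extract without precipitation. ChIP and input samples shared the genotype. It holds the transgene wgIs102, a copy of F23F12.9 fused to TY1, EGFP and FLAG tags with an unc119 marker, and the allele ed3, which the labels assign both to unc327 and to unc-119. The transgene was made by recombineering and brought in by bombardment, and no sample is of an untagged strain. Whether the replicates are separate cultures is not labelled. Analysed here were 3 lists of peaks, of ChIP replicate 1, of ChIP replicate 2 and the combined one, and no list of the input samples was analysed here. The lists hold no read counts, so depth is unknown.

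zip-8 encodes a transcription factor of the basic leucine zipper (bZIP) class. In this class a basic stretch of the protein contacts DNA, and a neighbouring helix with leucines at regular spacing pairs one molecule with another. The autosomes of C. elegans, such as III, have a gene-dense centre where recombination is rare, and arms with more repeats and frequent recombination. The zip-8 gene itself lies on chromosome III, and the transgene carries a copy of it, so reads from that copy would be placed on III. Which peaks lie at the gene was not analysed here, because the peaks are on WormBase build WS220 and the gene table used is of another build. No WS220 sequence was used here, so sites are given by position, 1-based and inclusive, with no sequence and no gene.

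Each peak name holds a number. On III the number followed the authors' score in both replicate lists, with a Spearman rho of −0.99 in each across peaks, so that low numbers go with high scores. The number was therefore read as the order of a list, the lowest first. The first 4605 peaks of replicate 1 and the first 2598 of replicate 2 were tied at the top score. Among tied peaks only the number gave an order, and the score cannot check it. In the combined list every peak had the same score and only the number gave an order.

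Chromosome III was the shortest, with a span of 13.8 Mb, and had the second densest cover of sites. It held 26.8 combined peaks per Mb, where the other chromosomes held 19 to 29.2 per Mb and only chromosome I held more. The 369 peaks made 16.5% of the list (95% Wilson interval 15 to 18.1%) on 13.7% of the span, a ratio of 1.2 to expectation (exact binomial test, two-sided, adjusted p = 0.00068 for 6 chromosomes). By this test 66.7% of the chromosomes (4 of 6) passed in one direction or the other. The test takes peaks as independent places, and intervals of shares cover counting error only. Each replicate list also had its second highest density on III, with 227 peaks per Mb in replicate 1 (190 to 231 on the others) and 158 per Mb in replicate 2 (121 to 165). When the expectation was taken from replicate peaks outside the combined list in place of the span, the ratio for III was 1.09 and no longer passed (exact binomial test, adjusted p = 0.14).

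Arms and centre, taken as 3 equal parts of the span, divided the sites almost evenly. The left arm held 121 peaks (32.8%, interval 28.2 to 37.7%), the centre 125 (33.9%, interval 29.2 to 38.8%) and the right arm 123 (33.3%, interval 28.7 to 38.3%). None of the 3 passed a two-sided exact binomial test against 33.3% (adjusted p = 1 for each, over 18 parts of 6 chromosomes), where 11.1% of all parts did (2 of 18). The passing parts were the left arm of I, with 41% of that chromosome's peaks, and the centre of IV, with 24.4%. A missed threshold does not show that arms and centre of III were alike within these intervals. Peaks of the centre came somewhat earlier in the list, with a median number of 889, against 1007 in the left and 1106 in the right arm, and 60% of them (interval 51.2 to 68.2%) were in the first 50% of the list, against 54.5% and 50.4%. These intervals overlap, and the difference between parts was not tested.

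Counts in 1 Mb bins ranged more widely in proportion, as smaller counts do by counting alone, and evenness at this scale was not tested. The 13 full bins of III held 18 to 38 combined peaks, with a median of 25. The 3 highest bins were neighbours: the fifth Mb held 35 peaks, the sixth 38 and the seventh 32. Among the 97 full bins of all chromosomes they ranked 4, 3 and 9. These 3 bins had 105 of the 369 combined peaks of III (28.5%) on 21.8% of its span. They held 20.4% of the replicate 1 peaks of III (638 of 3126) and 22% of those of replicate 2 (480 of 2182), close to their share of the span. The lowest bin followed at once: the eighth Mb held 18 combined peaks. The 10th Mb held 20 and the second 22. The right end was dense again, with 25 peaks in the last 0.781 Mb, or 32 per Mb. The bins were ranked by their counts, so their heights are a description and were not tested.

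**Figure D1:**
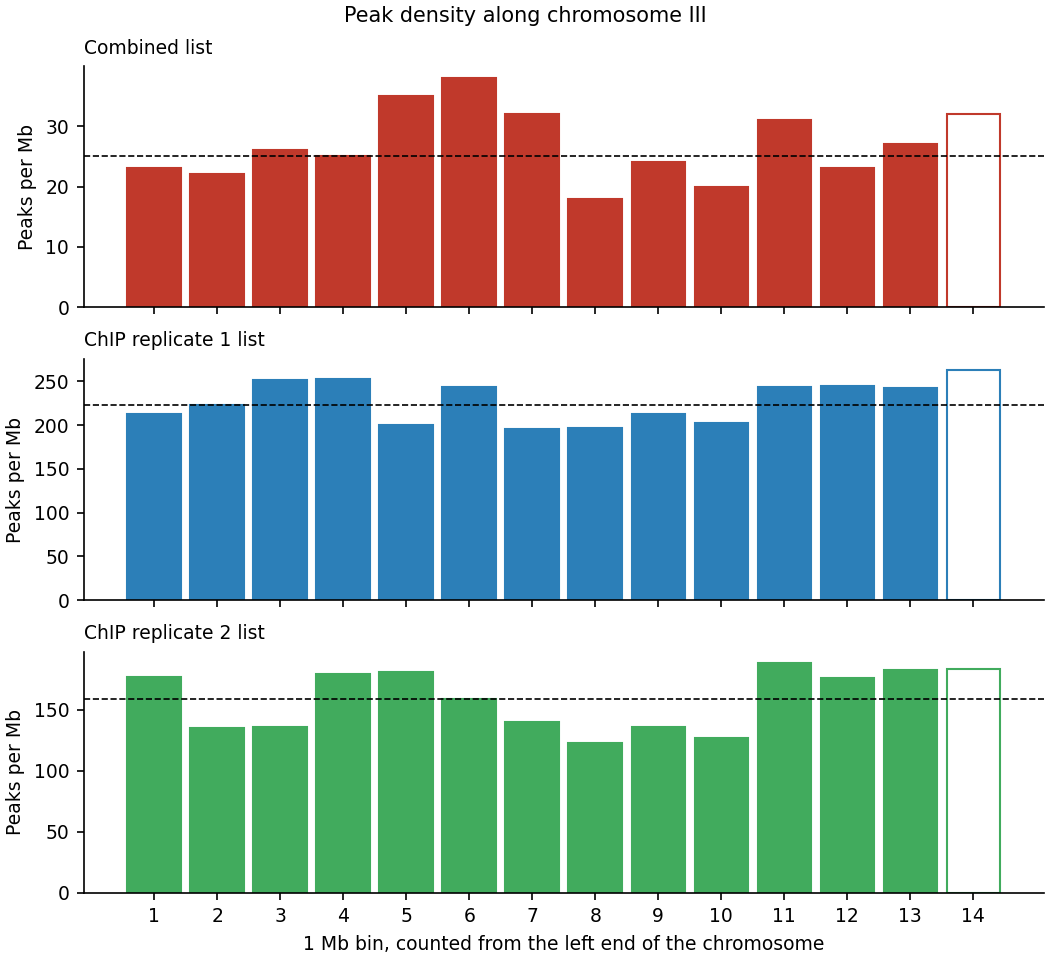
Peaks per Mb in 1 Mb bins along chromosome III, for the combined list and both ChIP replicate lists. The dashed line is the median of the 13 full bins, and the open bar is the last, shorter bin of 0.781 Mb. The fifth to seventh bins stand highest in the combined list, with 35, 38 and 32 peaks, and do not stand highest together in either replicate list.

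The same bins show how the lists differ. Replicate 1 had 195 to 253 peaks per full bin and replicate 2 had 123 to 188, beside the 18 to 38 of the combined list. The highest bin held 2.11 times the lowest in the combined list, 1.3 times in replicate 1 and 1.53 times in replicate 2, but smaller counts spread more in proportion by counting alone. Variance over mean was 1.33 in the combined list, 2.22 in replicate 1 and 3.78 in replicate 2. At equal relative unevenness this measure grows with the mean count, which was 26.5, 225 and 157 per full bin. It therefore does not rank the 3 lists by unevenness. For every 100 replicate 1 peaks there were 17.5, 15.6 and 16.4 combined peaks in the fifth, sixth and seventh Mb, against a median of 10.8 over the full bins. For every 100 replicate 2 peaks there were 19.3, 23.9 and 22.9, against a median of 16.3. These 3 bins were picked for their combined counts, which enter both ratios, so high ratios there follow in part from the choice. Across the 13 full bins, combined and replicate 1 counts had a Pearson r of 0.16 and a Spearman rho of 0.14, and combined and replicate 2 counts 0.44 and 0.63. The lists share their libraries, so these values only describe the 13 bins. Of the peaks of the sixth Mb, 68.4% were in the first 50% of the combined list, and of those of the fourth Mb 72%. The second Mb had the lowest share, 45.5%. On the other chromosomes variance over mean was 0.73 to 3.16 in the combined list, and 4 of the 5 lay above the 1.33 of III. In the first 2237 peaks of replicate 2 alone, variance over mean on III was 2.62.

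The 10 first sites of III were spread over the chromosome, 4 in the left arm, 3 in the centre and 3 in the right arm. The first lay at 3377113 to 3377516 and was number 2 of the combined list, number 2 of replicate 1 and number 10 of replicate 2. Combined number 12, at 2234195 to 2234584, had numbers 14 and 23 in the replicates, and combined number 13, at 5660918 to 5661264, had 16 and 27. The peak at 8560348 to 8560656 was combined number 21 and came later in replicate 2 (68) than in replicate 1 (20). The one at 9965363 to 9965699, combined number 26, did the opposite, as number 37 of replicate 1 and 14 of replicate 2. The remaining 5 lay at 6478580 to 6478927 (combined 27, replicates 56 and 38), 3018862 to 3019198 (29, replicates 25 and 111), 358120 to 358464 (35, replicates 40 and 108), 10211978 to 10212347 (38, replicates 35 and 232) and 11350013 to 11350372 (50, replicates 39 and 162). All 10 were in both replicates, within the first 56 numbers of replicate 1 and the first 232 of replicate 2. They were 309 to 404 bp wide, with a median of 348 bp, so none had the list's most common width.

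Sites on III had the lowest median number of the 6 chromosomes, 997, against 1033 to 1246.5 on the other 5. Chromosome I was near III, with a median of 1033 and 53.5% of its peaks in the first 50% of the list. Of the 369 peaks, 203 (55%, interval 49.9 to 60%) were in the first 50% of the list, against 49% of the other peaks, where 50% of all peaks lie by construction. The difference of 6.03 percentage points (interval 0.448 to 11.5) did not pass after adjustment (two-sided Fisher's exact test, adjusted p = 0.20 over the 6 chromosomes). The first 25% of the list held 116 peaks of III, 31.4% of them (interval 26.9 to 36.3%), against 23.7% of the other peaks. With that limit the difference passed (Fisher's exact test, adjusted p = 0.015), and with the first 10% of the list it did not (10.8% against 9.8%, adjusted p = 0.68). The adjustment covers the 6 chromosomes and not the choice of limit, so the pass at 25% alone does not establish an early order. In later steps of 25% III held 23.6%, 23% and 22% of its peaks. Where its share of the list is 16.5%, III supplied 1 of the first 10 peaks (10%), 10 of the first 50 (20%), 22 of the first 100 (22%), 35 of the first 200 (17.5%), 103 of the first 500 (20.6%) and 185 of the first 1000 (18.5%).

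**Figure D2:**
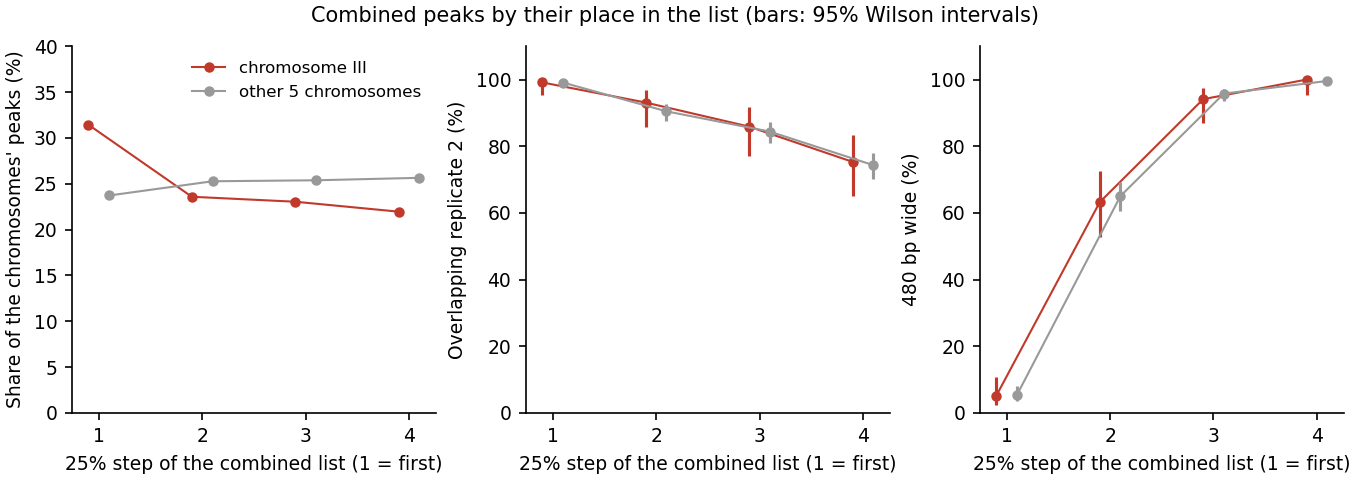
Combined peaks of chromosome III and of the other 5 chromosomes by steps of 25% of the list: the share of peaks in each step, the share overlapping a replicate 2 peak and the share 480 bp wide, in percent, with 95% Wilson intervals for the last pair. III has 31.4% of its peaks in the first step, against 23.7% elsewhere, while within each step the other shares lie close together.

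Widths moved with this order. The most common width, 480 bp, was that of 222 peaks of III (60.2%, interval 55.1 to 65%), against 67.6% of the other peaks and 66.3% of the whole list. The difference of −7.4 percentage points (interval −12.9 to −2.07) passed (two-sided Fisher's exact test, adjusted p = 0.020). Chromosome I had a like share, 60.1%, and passed too (Fisher's exact test, adjusted p = 0.014), so the low share was not particular to III. Narrower intervals made up 144 of the 369, with a median of 218 bp and a range of 120 to 408 bp. They came early, with a median number of 362, whereas the 480 bp peaks had a median number of 1465. Within steps of 25% of the list the share at 480 bp was 5.17%, 63.2%, 94.1% and 100% on III, against 5.42%, 65%, 95.8% and 99.6% elsewhere. The call was lost within the first 25% alone (5.17% against 5.42%, adjusted p = 1) and within the second 50% (97% against 97.7%, adjusted p = 0.70), and also within the first 50% (30% against 36.2%, Fisher's exact test, adjusted p = 0.24). The comparisons within the first 25% and the second 50% were added after the data were seen.

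**Figure D3:**
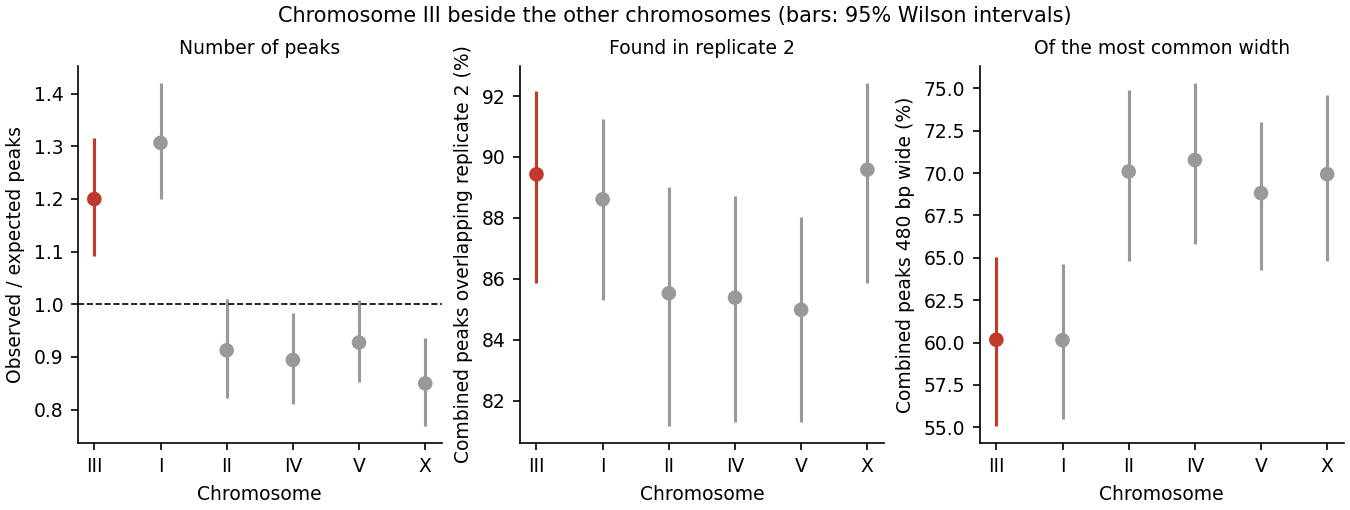
Chromosome III, in red, beside the other 5 chromosomes: combined peaks relative to the number expected from span, the share overlapping a replicate 2 peak and the share 480 bp wide. Points are counts or shares and bars 95% Wilson intervals. III and I stand above 1 in number and near 60% at 480 bp, and the intervals for replicate 2 overlap.

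III also held the most overlapping intervals. Once intervals that overlap were joined, its 369 peaks formed 358 distinct regions covering 140 kb, or 1.01% of the span. The 11 intervals lost by joining compare with 2 to 7 on each other chromosome. They fell into 10 regions of several intervals. Exact repeats occurred at 2 places. The widest interval of III, at 7814232 to 7816962, spans 2731 bp and was entered 3 times, as numbers 224, 293 and 911. It met 6 peaks of replicate 1, the earliest number 192, and 4 of replicate 2, the earliest number 57. The other repeat, at 2552030 to 2552437, was entered as numbers 155 and 1606 and met number 113 of replicate 1 and number 714 of replicate 2. No other distinct region of III was wider than 754 bp, and the widest region of any other chromosome was 882 bp.

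After that interval, the widest distinct regions were pairs of overlapping intervals. The pair at 1396503 to 1397256 spans 754 bp and its earlier member was number 1184. The pair at 11612530 to 11613252 spans 723 bp (number 311, replicate numbers 307 and 424). The pair at 13737383 to 13738080 spans 698 bp (number 992, replicates 925 and 959), and that at 2553093 to 2553778 spans 686 bp (number 1145, replicates 1573 and 731). The last of these began 655 bp after the repeated interval at 2552030. It was followed by the longest gap of the chromosome.

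Spacing on III was closer than on 4 of the other 5 chromosomes. The median gap between neighbouring distinct regions was 24.8 kb, against 21.4 kb on I and 27.5 to 36.2 kb on the rest. Of the 358 regions, 114 (31.8%, interval 27.2 to 36.8%) had another within 5 kb, against 27.4% of the regions elsewhere (interval 25.4 to 29.5%) and 28.1% of all. Neighbours share a gap, so no test was made, and a denser chromosome has closer neighbours by its number of sites alone. Gaps over 100 kb numbered 30 on III, 8.4% of its 357 gaps, against 13.1% elsewhere. The longest, 247 kb, ran from 2553779 to 2800824. No combined peak lay there, and it enclosed 64 replicate 1 peaks and 23 replicate 2 peaks. Over all of III the replicate lists held 227 and 158 peaks per Mb, so long gaps hold replicate peaks by length alone. The next gaps were 229 kb long from 6975208, 224 kb from 3876504 and 211 kb from 7492332, with 35, 43 and 40 replicate 1 peaks inside them and 27, 46 and 25 replicate 2 peaks.

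**Figure D4:**
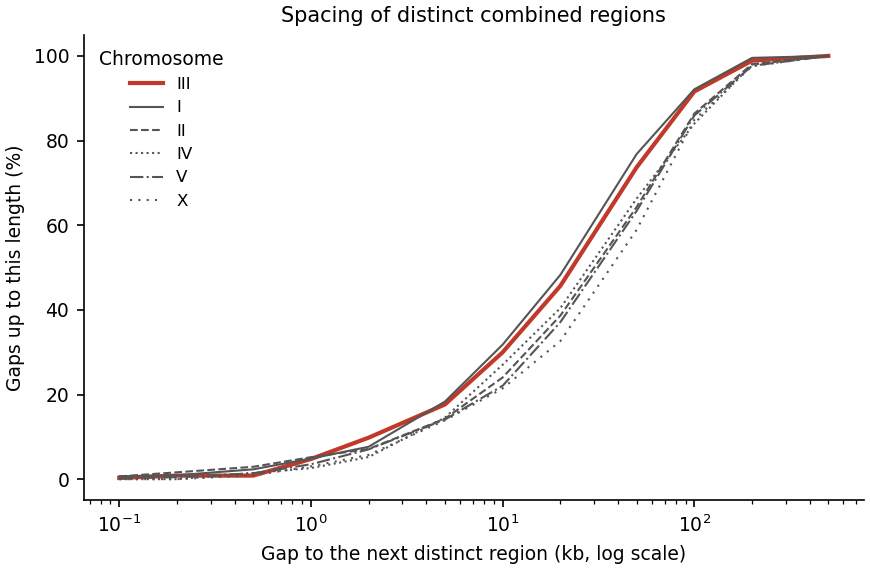
Cumulative share of gaps between neighbouring distinct combined regions up to a given length, by chromosome, on a log axis in kb. The red line of chromosome III (median gap 24.8 kb) runs with that of I (21.4 kb) and above those of II, IV, V and X through most of the range, where 8.4% of gaps on III exceed 100 kb.

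Dense stretches, defined as runs of at least 3 distinct regions with gaps of up to 5 kb, numbered 9 on III. The other chromosomes had 7 to 9, and III, being shorter, had 6.53 per 10 Mb, against 3.95 to 5.98. The 9 stretches held 30 regions, 8.38% of the regions of III (6.79 to 8.41% elsewhere). Of these regions 27 were in both replicates, 2 lacked a replicate 2 peak and 1 lacked a replicate 1 peak. Their median number was 552, and 22 of the 30 (73.3%) were in the first 50% of the list, where 55.3% of all distinct regions of III and 49.3% of those elsewhere lay.

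Stretches of 4 regions were the largest on III, while the largest of the other chromosomes had 4 to 6, with 3 of the 5 above III. The shortest of them ran over 4.31 kb from 1454257 to 1458564. The regions in it, from left to right, had combined numbers 1479, 418, 149 and 1268. The flanking regions were 480 bp wide, and the middle ones were 183 and 307 bp wide. The leftmost had no replicate 2 peak. Another ran over 4.78 kb from 353685 to 358464 and ended in combined number 35, one of the 10 first sites, with numbers 527, 2123 and 492 to its left. The longest ran over 5.42 kb from 6826149 to 6831567, with combined numbers 475, 1008, 1012 and 203. In each of these stretches the best-ordered region was narrower than 480 bp.

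The most compact stretch spanned 1.87 kb, from 6477055 to 6478927, and held 3 regions. The right one, at 6478580 to 6478927, was combined number 27. The middle one, at 6478240 to 6478570, ended 9 bp before it, the shortest gap on III, and was combined number 118. The middle region was also the single combined peak of III without a replicate 1 peak. In replicate 2 it was number 13, at 6478281 to 6478531, ahead of its right neighbour, which was number 38 there. In replicate 1 the right neighbour was number 56, and 82 bp separated it from the replicate 2 peak of the middle region. The left region, at 6477055 to 6477534, had the combined number 596 and the numbers 851 and 235 in the replicates. A stretch of like compactness lay at 5718436 to 5720758, where 3 regions 204 to 224 bp wide had combined numbers 322, 465 and 736. Those 3 were earlier in replicate 2 (numbers 179, 225 and 297) than in replicate 1 (757, 739 and 979). Both stretches were named after their values were seen.

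Nearly all sites of III were found in replicate 1, and about 9 in 10 of them in replicate 2 as well. A replicate 1 peak overlapped 368 of the 369 by at least 1 bp (99.7%, interval 98.5 to 99.95%), where 99.9% of all combined peaks had one. A replicate 2 peak overlapped 330 (89.4%, interval 85.9 to 92.2%), against 86.8% of the other peaks and 87.3% of all. Both replicates held 329 (89.2%), against 87.1% of all. For replicate 2 the difference between III and the rest was 2.6 percentage points (interval −1.24 to 5.78; two-sided Fisher's exact test, adjusted p = 0.38), for replicate 1 −0.164 (interval −1.41 to 0.196; adjusted p = 0.96) and for both 2.44 (interval −1.44 to 5.65; adjusted p = 0.43). With a reciprocal overlap of 50% the shares of III were 84% in replicate 1 and 57.2% in replicate 2, against 86.9% and 60.2% elsewhere, so III then stood below the rest in replicate 2 rather than above (Fisher's exact test, adjusted p = 0.28 and 0.66). The combined list was made from the same experiment as the replicate lists, so these shares do not show that sites recur independently.

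The 39 sites of III without a replicate 2 peak came late. Their median number was 1731, against 911 for the 329 sites in both replicates, and 32 of the 39 were in the second 50% of the list. By steps of 25% of the list, 99.1%, 93.1%, 85.9% and 75.3% of the sites of III had a replicate 2 peak, against 99.1%, 90.5%, 84.4% and 74.3% of the other sites. Within each step III thus stood close to the rest. The 39 lay in all parts, 15 in the left arm, 12 in the centre and 12 in the right arm. By 1 Mb bin they numbered 0 in the 11th Mb, which had 31 combined peaks, and 6 of 26 in the third Mb. The first of them lay at 734376 to 734586 (combined number 318, replicate 1 number 211), 1158691 to 1158876 (604, replicate 1 number 336), 2934254 to 2934733 (747, replicate 1 number 592), 4862310 to 4862461 (837, replicate 1 number 491) and 3390759 to 3391238 (854, replicate 1 number 596). The nearest replicate 2 peak was 743 bp away from the first replicate 1 peak and 9301 bp away from that of combined number 747.

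Where a partner was found, its midpoint was close, in part because a partner overlaps by definition and the nearest was taken. The nearest midpoint of an overlapping peak was a median of 9 bp from that of the combined peak in replicate 1 and 17.3 bp in replicate 2, and 90% lay within 50.2 and 84 bp. One partner was usual, in 324 of 368 sites for replicate 1 and 267 of 330 for replicate 2. The lowest partner number was within 2237, the length of the combined list, for 334 sites in replicate 1 (90.8%) and 242 in replicate 2 (73.3%). Across the peaks of III the combined number had a Spearman rho of 0.89 with the replicate 1 number and 0.61 with the replicate 2 number. Between the replicates, rho was 0.38 over the 329 sites found in both. On the other chromosomes these values were 0.83 to 0.90, 0.49 to 0.58 and 0.20 to 0.37. They are descriptions across peaks of the same libraries.

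**Figure D5:**
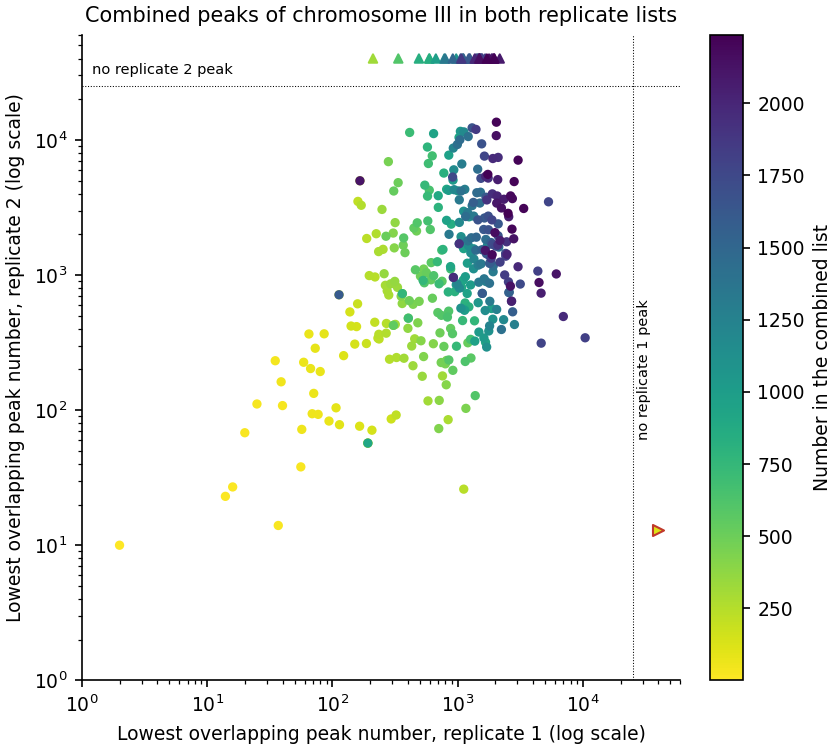
Each point is a combined peak of chromosome III, placed by the lowest number of an overlapping peak in replicate 1 and replicate 2 (log axes) and coloured by its own combined number. Triangles mark the 39 peaks without a replicate 2 peak and the 1 without a replicate 1 peak. The order in the combined list follows replicate 1 (rho 0.89) more closely than replicate 2 (rho 0.61).

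Single sites show how far the orders parted. Among sites in both replicates, the one at 4502602 to 4502844 was number 26 of replicate 2 and 1119 of replicate 1, and stood at combined number 240. The site at 10726382 to 10726861 was number 343 of replicate 2 and 10422 of replicate 1, and combined number 1813. In the other direction, the overlapping intervals at 5750454 to 5751016 were number 166 in replicate 1 and 4982 in replicate 2, and were entered as combined numbers 230 and 2116. The region at 5764054 to 5764175, in one of the dense stretches, was number 414 of replicate 1 and 11351 of replicate 2. These 4 were named after their values were seen. Replicate 1 gave the lower number at 191 of the 329 sites, and replicate 2, the shorter list, at 138.

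Replicate 1 peaks met replicate 2 more often on III than on the other 5 chromosomes together, though less often than on I alone (29.7%). Replicate 1 had 3126 peaks there, of which 887 (28.4%, interval 26.8 to 30%) overlapped a replicate 2 peak, against 25.7% of its other peaks and 26.1% of all. This difference of 2.66 percentage points (interval 0.978 to 4.39) passed (two-sided Fisher's exact test, adjusted p = 0.0042 over the 6 chromosomes). Chromosomes I, II and IV passed too (Fisher's exact test, adjusted p = 1.2e-06, 0.024 and 0.0042), so a pass was not particular to III. The share of I was above that of the other chromosomes, and those of II and IV were below. The difference for III did not pass with a reciprocal overlap of 50% (17.7% against 16.8%, Fisher's exact test, adjusted p = 0.35) and did with midpoints within 100 bp (16.1% against 14.1%, adjusted p = 0.012). Replicate 2 had 2182 peaks on III, of which 951 (43.6%) overlapped replicate 1, against 41.2% of its other peaks and 41.6% of all (Fisher's exact test, adjusted p = 0.12). The peaks of replicate 2 covered 8.66% of III, against 6.62 to 8.93% of the other chromosomes, and those of replicate 1 covered 8.38%, against 7.03 to 8.51%. More cover gives more overlaps by placement alone, and its part in the difference was not tested. These 2 comparisons between the replicate lists, with their alternatives, were added after the data were seen.

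Of the shared replicate 1 peaks of III, 353 (39.8%) met a combined peak, as did 46 of the 2239 unshared ones (2.05%). In replicate 2 the counts were 376 of the shared peaks (39.5%) and 4 of the 1231 others (0.325%). The authors' procedure weighs how well replicates agree, so this contrast can follow from the making of the combined list. Shared or not, 12.8% of the replicate 1 peaks of III met a combined peak (9.8 to 13.6% on the other chromosomes). In replicate 2 it was 17.4% (15 to 18.7%). The split by sharing is not given for the other chromosomes. Sharing followed order: of the first 5% of the peaks of III, 148 of 156 were shared in replicate 1 and 107 of 109 in replicate 2, and of the last 5%, 21 of 156 and 34 of 109. After number 13 at 6478281, the earliest replicate 2 peaks of III with no replicate 1 peak were numbers 309 at 3867273 to 3867872, 745 at 8358054 to 8358653, 816 at 4274562 to 4275161 and 873 at 4090588 to 4091187. None of these 4 met a combined peak, and 514 to 3311 bp separated them from the nearest replicate 1 peak.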

How the data were processed

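ChIP-seq peaks were analysed for both ChIP samples and for a combined list. Per the file headers and source columns, the authors called peaks with SPP and IDR, a procedure that weighs how well replicates agree, on WormBase build WS220. Versions, thresholds, read depth, pooling of reads and use of the input samples are absent from the sources of this work. The deposited score per peak has no stated unit, and was used only to check that peak numbers order each replicate list. It cannot check the order among peaks tied at the top score. All other values were computed here from the intervals (scipy 1.17.1, pandas 2.3.3 and numpy 2.4.6 under Python 3.11.15).

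The 6 nuclear chromosomes were used, and peaks on mitochondrial DNA were left out. Spans run to the last peak of any list. Arms and centre (3 equal parts of the span) and 1 Mb bins count peak midpoints. Distinct regions join intervals that overlap. A partner overlaps by at least 1 bp. Shares were compared with two-sided exact binomial or Fisher's exact tests for every chromosome and adjusted by the Benjamini-Hochberg method over the 6 chromosomes or 18 parts, at a threshold of 0.05, with Wilson intervals and Newcombe intervals of differences. The tests were checked on simulated lists with peaks placed independently and at random, so the check does not cover clustered peaks. Peaks are places, not replicates.

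Sites named are the first 10, the widest 5, repeated intervals, extreme bins, the 3 largest stretches and the first 5 sites lacking a partner, unless said otherwise. The sites and rules were chosen with earlier results of these data known. The zip-8 symbol comes from a RefSeq gene table of build WBcel235.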

Additional observations from a re-analysis of the deposited data

How the results depend on the processing

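The share of combined peaks on III (16.5%) passed in distinct regions, with regions within 2 kb joined, in the first 50% of the list, and with either replicate left out (16.8% both times). Against replicate peaks outside the combined list it did not, since the ratio was 1.09 to an expectation higher than the span gives. No arm or centre of III passed under any setting. In the first 2237 peaks of a single replicate the left arm held 32.5 to 33.9%, above expectation in those of replicate 2 (33.9%) and below it otherwise. The direction of the difference in replicate support turned in 3 values that never passed: replicate 2 support with a reciprocal overlap of 50% (57.2%, against 60.2% elsewhere), support by both under the same rule (56.9% against 59.5%), and replicate 1 support with the better-ordered 50% of the replicate lists (99.73% against 99.68% elsewhere). The early order of III passed with the first 25% of the list (31.4%) and not with 50% (55%) or 10%. The smaller share at 480 bp (60.2%) no longer passed within the first 50% of the list (30.0%, against 36.2% elsewhere), the second 50% (97%, against 97.7%) or the first 25% (5.17%, against 5.42%). The difference was thus about as large within the first 50% and much smaller within the others. Overlap of replicate 1 peaks of III with replicate 2 (28.4%) no longer passed with a reciprocal overlap of 50% (17.7%). Apart from changes that another distance brings by construction, the cause was not tested. Regions with a neighbour numbered 17.6% at 2 kb, 51.7% at 10 kb and 23.7% in the first 50% of the list, against 31.8%. Dense stretches numbered 5, 21 and 4 under these settings, against 9. In the first 2237 peaks of a single replicate, the share with a neighbour was 32 to 34.6% and stretches numbered 8 to 13. The variance of bin counts there was 1.51 to 2.62 times the mean, against 1.33. No paired analysis was possible because the input samples have no list here, so no replicate block could be fitted. How far read depth limits these values is unknown.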

Other observations

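On chromosome III, 529 replicate 1 peaks (16.9% of the replicate 1 peaks there) overlapped a replicate 2 peak although neither met a combined peak. The same share is not given here for the other chromosomes, so it does not set III apart. These shared peaks stood late in the lists, with median numbers of 9243 in replicate 1 and 6287 in replicate 2. The 5 with the lowest summed numbers lay at 2554048 to 2554431 (replicate numbers 2935 and 1185), 2172051 to 2172434 (2258 and 1894), 5714993 to 5715376 (3844 and 344), 6605530 to 6605913 (2579 and 1888) and 4355082 to 4355465 (2972 and 1509). All positions are of the replicate 1 peak, and each of these is 384 bp wide. The one at 2554048 begins 269 bp beyond the end of the combined region at 2553093 to 2553778. The one at 5714993 lies 3.06 kb left of the dense stretch that begins at 5718436.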
